A study of Rattus norvegicus with 6 samples.

Results

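The genes described here encode the proteins of the cytosolic ribosome in primary rat bone marrow mesenchymal stem cells (BMSCs) exposed to cigarette smoke extract (CSE). They were taken by symbol: every gene called Rpl or Rps followed by a number and at most 1 letter, plus Rplp0, Rplp1, Rplp2 and Rpsa. The rule found 81 of the 37209 genes in the count table, 48 of the large and 33 of the small ribosomal subunit. BMSCs are precursors of bone, cartilage and fat in the marrow stroma. They came from the femur of wild-type rats and were grown with fetal bovine serum, then given 3% CSE for 6 h (3 libraries) or serum-free medium as the control (3 libraries). Whether the extract was itself diluted in serum-free medium, and the strain, age and number of the animals, are not stated in the labels.

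The ribosome is built from ribosomal RNA and one set of small, mostly basic proteins, and proliferating cells devote much of their messenger RNA to making them. Messages of ribosomal proteins and of several translation factors begin with a C followed by a run of pyrimidines, the 5′ terminal oligopyrimidine (TOP) motif. Through this motif the mTORC1 kinase and the RNA-binding protein LARP1 control their translation and stability together. Ribosomal proteins that are not built into a subunit are quickly degraded, and a few of them bind the p53 inhibitor Mdm2.

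Library totals ran from 15958621 to 22589327 counts and were higher in each CSE library than in any control library. Summed stromal markers lay between 31351 and 35520 CPM (counts per 1000000 counts of the library, with library sizes scaled by TMM factors) over the 6 libraries, with all 11 detected and most of the sum from Col1a1 (26075 CPM on average in CSE and 28774 in control). Of the 11, 6 were called lower, among them Cxcl12 (log2 fold change -2.17), Pdgfra (-0.97) and Prrx1 (-0.95), and 4 higher, among them Vcam1 (2.51) and Cd44 (1.09). Summed macrophage markers, 9 of 10 of which are in the table, lay at 259 to 280 CPM in CSE and 319 to 326 in control, with Cd163 listed at 0. Of the 8 tested, 3 were called lower (Cd14 at -1.45, Mrc1 at -0.28 and Csf1r at -0.25), 1 higher (Cd68 at 0.14) and 4 were not called. The 8 genes listed for other blood cells summed to 49.8 to 51.3 CPM in CSE and 61.7 to 66.1 in control. Nearly all of this sum came from Ptprc, which is not particular to blood cells other than macrophages. Cd79a, Cd3e and Nkg7 were listed at 0. Endothelial markers summed to 3.51 to 4.34 CPM in CSE and 6.41 to 7.58 in control. Red cell markers summed to at most 0.252 CPM, with Alas2 (X-linked in RefSeq), Hbb and Hba1 listed at 0. The part of these cell types in the results below was not tested. Libraries of 1 group are not said to come from separate cultures, so the p-values rest on a spread between libraries that can be technical alone. In RNA from whole cultures, fewer cells of a type and less RNA per cell cannot be told apart.

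The start sites show what many of these genes share. RefSeq (assembly GRCr8) gave a start window for 63 of the 81 genes. The windows below are printed because they belong to genes described further on, from ordinary members to those that stood apart. Each holds 15 bases before and 15 bases from the annotated start, 5′ to 3′, and capitals mark the unbroken pyrimidine run from the annotated start on.
Rpl19 (chr10:83519049-83519078, plus strand): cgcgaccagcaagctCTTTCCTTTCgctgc
Rps27 (chr2:177964592-177964621, minus strand): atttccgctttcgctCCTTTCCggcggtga
Rps15 (chr7:10068101-10068130, minus strand): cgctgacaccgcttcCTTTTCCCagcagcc
Rplp0 (chr12:46718376-46718405, minus strand): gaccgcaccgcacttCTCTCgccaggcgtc
Rpl12 (chr3:36661925-36661954, plus strand): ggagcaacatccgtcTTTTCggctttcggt
Rpl3 (chr7:113507976-113508005, minus strand): ccagcgcctgctcgaTCTCTatcggcggcg
Rps26 (chr7:1643390-1643419, minus strand): gagagccgccgggtcCTCTTTCgagtcttg
Rps27l (chr8:76443643-76443672, plus strand): gtttattcatttgtcattatttgtggtgtc
Rpl19, Rps27, Rps15, Rplp0 and Rps26 open with C and at least 4 further pyrimidines. In Rpl12 the run opens with T and directly follows other pyrimidines, so that the annotated start lies inside a longer run. Rps27l has no pyrimidine at its annotated start.

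A start of C followed by 4 pyrimidines stood in 23 of the 64 windows of these genes (35.9%; Rps27a has 2 windows), against 881 of 33469 windows of all genes (2.63%). The letters CTTTCC on the gene's strand, from 15 bases before to 30 after the start, were in 26.6% of the windows of these genes and 1.86% of all. In the whole window, from 250 bases before to 50 after the start and on both strands, CCGGAAG (the core bound by ETS factors) was in 31.3% against 8.75% of all. AAGATGG, the core bound by YY1, was in 15.6% against 7.01%, GGGCGG (SP factors) in 59.4% against 33.1%, and TATAAA in 10.9% against 14.2%. Among the 21851 windows of protein-coding genes alone, CCGGAAG was in 10.7%, AAGATGG in 7.29%, GGGCGG in 41.8% and TATAAA in 13.0%. Of the same windows, 2.52% opened with C and 4 pyrimidines, and 1.93% held CTTTCC near the start. Neighbouring matches can share bases: the last 2 bases of CTTTCC can be the first 2 of CCGGAAG. These are matches of letters at annotated starts, which need not be the starts used in these cells. In the translation factors with TOP messages listed further on, 0 of 18 windows opened with C and 4 pyrimidines. The run in Eef1a1, for example, opens with T.

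Most ribosomal protein messages that could be tested rose in CSE-treated cells, by a median of about 1.5-fold, and none was called lower. Of the 81 genes, 75 had enough counts to be tested, and 69 of these were called higher at an adjusted p below 0.05 (edgeR quasi-likelihood F test, Benjamini-Hochberg over all tested genes). The other 6 were not called. Over all 13390 tested genes 73.9% were called, 36.3% higher and 37.5% lower. The median log2 fold change of the 75 was 0.59, or 1.51-fold, with quartiles of 1.46-fold and 1.58-fold. Over all tested genes the median was -0.02 and the quartiles were -0.61 and 0.49. In 68 of the 69 every CSE library lay above every control library, with Rpl38 the exception. Such separation was common: the groups were apart, in either direction, in 10143 of all 13390 tested genes.

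The subunits were close in their medians. The median log2 fold change was 0.59 in the large subunit, with 39 of 42 tested genes higher, and 0.60 in the small subunit, with 30 of 33 higher. Of the 75 genes, 61 lay within 0.2 log2 units of the common median, and their SD was 0.20 against 1.17 over all tested genes. Among those called, 42 rose by at least 1.5-fold, and 1 (Rps20) by at least 2-fold, a size it did not keep with copies added (below). The smallest rises among those called were 1.11-fold (Rps27l), 1.17-fold (Rps26) and 1.31-fold (Rpl3). Of the 75, 51 had a mean of 100 CPM or more, and genes at that level tended to be higher in CSE as a whole. At 500 CPM or more, 23 of 23 ribosomal protein genes and 63.0% of all genes were called higher, with median log2 fold changes of 0.59 and 0.29. Between 100 and 500 CPM these were 28 of 28 and 60.2%, with medians of 0.59 and 0.27. From 10 to 100 CPM they were 12 of 13 and 40.0%, with medians of 0.68 and 0.00, and below 10 CPM 6 of 11 and 21.7%.

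**Figure D1:**
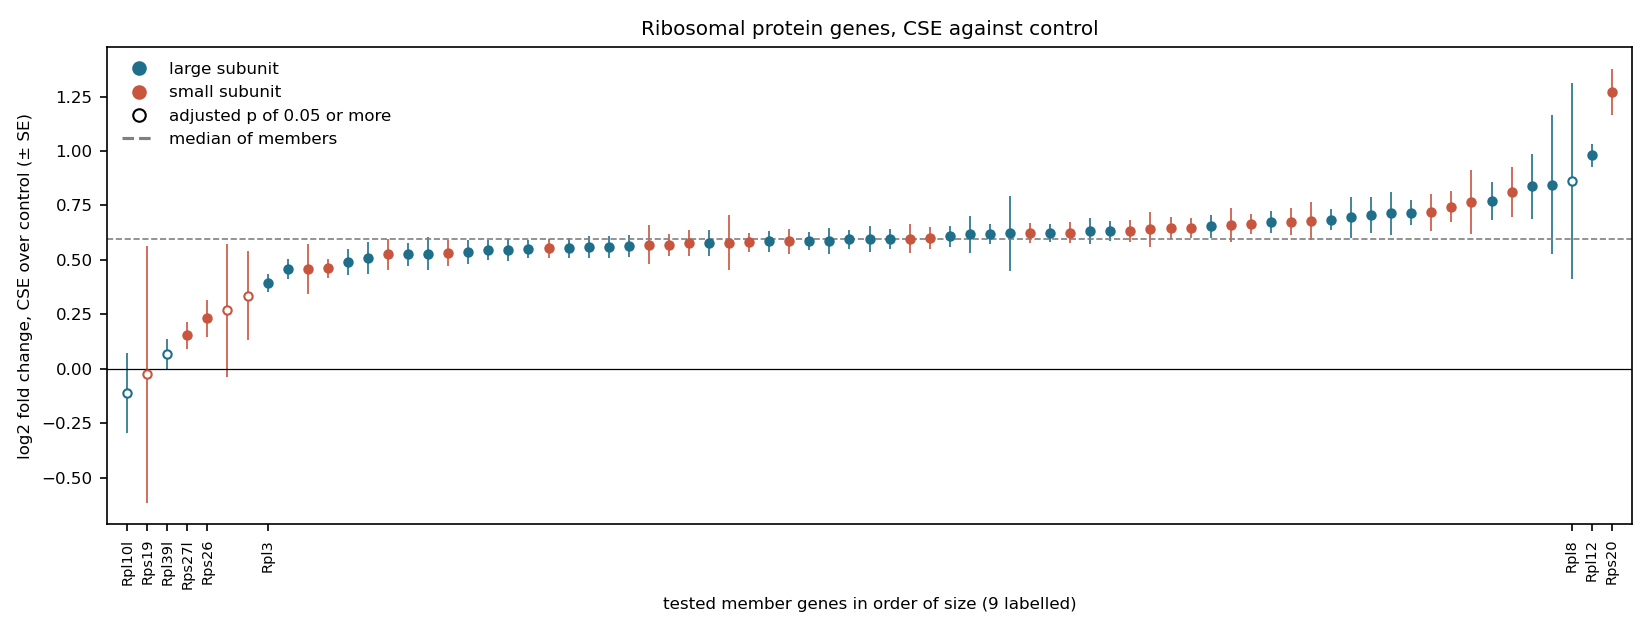
Log2 fold change of CSE over control (vertical axis, bars ± SE from the edgeR fit, 3 libraries a group) for the 75 tested ribosomal protein genes in order of size, with 9 of them labelled, large subunit in blue and small in red, open circles where the adjusted p was 0.05 or more. Most genes lie near the dashed median of 0.59, with Rps20 at 1.27 and Rpl12 at 0.98 above it and Rps27l at 0.15 and Rps26 at 0.23 below it.

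**Figure D2:**
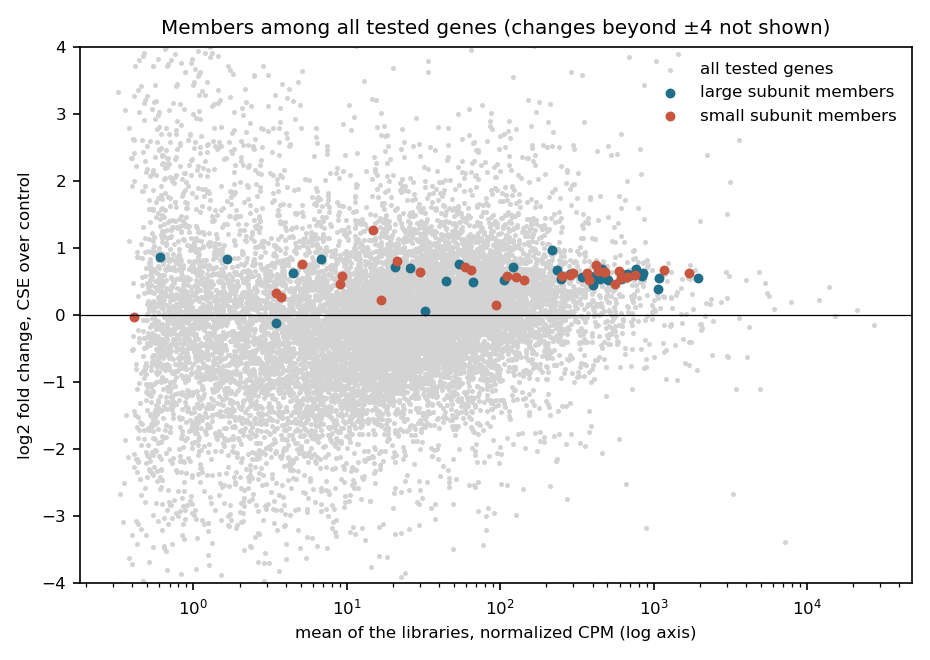
Log2 fold change of CSE over control (vertical axis) against the mean normalized CPM of the 6 libraries (horizontal log axis) for all tested genes in grey and the ribosomal protein genes in blue (large) and red (small). At 100 CPM or more the members form a narrow band between 0.39 and 0.98 inside a grey cloud that spreads to both sides of 0.

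The size of the rise depended on the scaling. With total counts as the scaling the members' median log2 fold change was 0.41 and that of all tested genes -0.21, and 66 members were called. With upper-quartile factors the medians were 0.46 and -0.15, and 66 were called. The calls over all genes then split 28.0% higher to 47.2% lower and 30.2% higher to 44.7% lower. A scaling factor shifts every gene alike, so the gap of 0.61 between the 2 medians is the same under each scaling by construction.

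The share of all counts that fell on the members uses no factor beyond the library total, as does the scaling by total counts. It was 3.36%, 3.22% and 3.26% in CSE libraries 1 to 3 and 2.41%, 2.45% and 2.58% in control libraries 1 to 3. The groups did not overlap. The means were 3.28% ± 0.075 and 2.48% ± 0.088 (SD, n = 3), a difference of 0.80 percentage points (exact 2-sided permutation test, p = 0.1, the smallest that 3 against 3 libraries can give). Counts of the large subunit over those of the small one were 1.67 ± 0.020 in CSE and 1.71 ± 0.046 in control (SD, n = 3; exact permutation p = 0.4). The control value of library 1 was 1.76, and the other 5 libraries lay between 1.66 and 1.70.

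**Figure D3:**
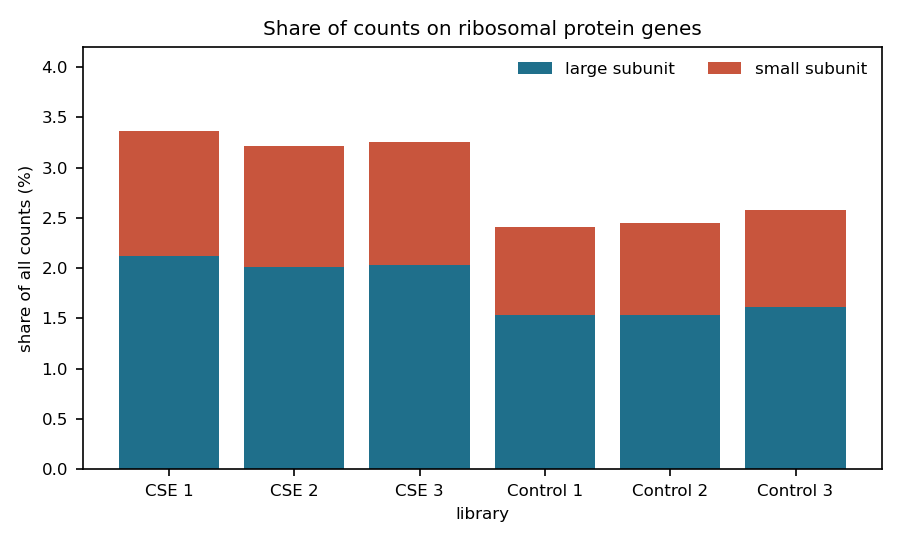
Share of all counts on ribosomal protein genes (vertical axis, %) in each of the 6 libraries, stacked from the large (blue) and small (red) subunit. The CSE bars end at 3.22% to 3.36% and the control bars at 2.41% to 2.58%.

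The P stalk is the arm of the large subunit that calls elongation factors to the ribosome, with Rplp0 as its base and Rplp1 and Rplp2 as its tips. All 3 messages were higher in CSE. Rplp0 stood at 2421, 2190 and 2308 CPM in CSE libraries 1 to 3 and 1539, 1477 and 1681 in control libraries 1 to 3, a log2 fold change of 0.56 ± 0.051 (SE; adjusted p = 2.5e-08). Rplp1 was at 580, 552 and 584 CPM against 275, 367 and 416 (0.69 ± 0.095; adjusted p = 3.6e-06), with control library 1 the lowest and a control CV of 20.2%, the highest of the 51 members at a mean of 100 CPM or more. Rplp2 had 34.2, 29.7 and 31.6 CPM against 18.4, 21.6 and 18.4 (0.71 ± 0.083; adjusted p = 5.6e-07). In none of the 3 did the groups overlap. Rpl12, which sits at the base of this stalk, had the second largest rise of the members with a mean of at least 5 CPM. It stood at 308, 276 and 287 CPM against 156, 140 and 146, a 1.97-fold difference (log2 0.98 ± 0.054; adjusted p = 3.0e-11). The lowest CSE library lay far above the highest control library.

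Rpl5 and Rpl11 join 5S ribosomal RNA in a particle that, when free, binds Mdm2, and Rpl23 binds Mdm2 as well. Their messages moved with the rest. Rpl5 was at 1042, 1000.2 and 997 CPM in CSE and 674, 657 and 692 in control (log2 fold change 0.59 ± 0.042; adjusted p = 1.0e-09). Rpl11 rose from 502 ± 26.2 to 733 ± 13.8 CPM (SD, n = 3) and Rpl23 from 499.6 ± 25.2 to 754 ± 8.64 CPM, by 0.55 and 0.59 on the log2 scale. The groups were separate for each, and none of the 3 was called when set against the sum of all members (described below).

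Of the genes whose proteins line the peptide exit tunnel and its port, all 7 that could be tested (Rpl4, Rpl17, Rpl19, Rpl23a, Rpl26, Rpl31 and Rpl35) were called higher, with log2 fold changes from 0.55 to 0.68. Rpl39, another tunnel protein, was listed at 0. Around the peptidyl transferase centre, where peptide bonds form, Rpl3 rose less than most. It was at 1228, 1185 and 1214 CPM in CSE and 894, 919 and 950.4 in control, a log2 fold change of 0.39 ± 0.042 (adjusted p = 1.7e-07). Rpl10a, the protein of the L1 stalk where spent transfer RNA leaves, rose from 91.4 ± 2.24 to 150.2 ± 11.1 CPM (0.72 ± 0.057; adjusted p = 3.5e-09).

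On the small subunit, the 5 genes at the messenger RNA entry and decoding site (Rps2, Rps3, Rps9, Rps15 and Rps23) were all called higher, with log2 fold changes from 0.46 to 0.66. Rps3, which lines the entry channel and is also a ubiquitin target when ribosomes stall, was at 806, 794 and 804 CPM in CSE and 495, 558 and 567 in control (0.57 ± 0.050; adjusted p = 1.5e-08). Rps6 is the small subunit protein that S6 kinase phosphorylates downstream of mTORC1. Its message stood at 38.7, 33.6 and 37.2 CPM against 22.9, 25.7 and 21.7 (0.64 ± 0.079; adjusted p = 1.1e-06). For both genes each CSE library exceeded each control library.

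At the platform, where messenger RNA leaves the subunit, 4 of 5 genes were called higher. Rpsa, which is also known as a laminin receptor, was at 2138, 1984 and 2044 CPM in CSE and 1303, 1287 and 1414 in control (log2 fold change 0.62 ± 0.046; adjusted p = 1.6e-09). Rps14 rose by 0.77 on the log2 scale. Rps26, which contacts the message next to the start codon, rose least of the 4 at 17.9, 18.2 and 18.1 CPM against 15.9, 14.5 and 15.8 (0.23 ± 0.085; adjusted p = 0.020). Its groups did not overlap, but the call was lost without control library 2 (0.18; adjusted p = 0.11), with total counts (0.04), with upper-quartile factors (0.10) and against a 1.2-fold threshold.

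Head and beak genes had log2 fold changes from -0.03 to 1.27, and 4 of 5 were called higher. Rps20 is a head protein that is ubiquitinated when ribosomes collide. Before copies were added (below), it had the largest rise of the tested members. It was at 21.9, 19.6 and 21.1 CPM in CSE and 10.1, 7.85 and 8.12 in control, a 2.41-fold difference (log2 1.27 ± 0.11; adjusted p = 6.9e-09). Rps12 rose from 15.6 ± 3.36 to 27.2 ± 1.58 CPM (0.81 ± 0.11; adjusted p = 5.7e-06). Rps27a, made as a fusion with ubiquitin, stood at 521, 505 and 550.1 CPM against 277, 304 and 361 (0.74 ± 0.071; adjusted p = 4.3e-08). Rps10, another collision target, changed by 0.53 ± 0.060 (adjusted p = 4.1e-07). Among the other members with the largest rises were Rpl9 (0.84), Rpl13 (0.77) and Rps18 (0.72), and among those with the smallest were Rpl27 (0.46), Rps9 (0.46) and Rpl22 (0.49). All 6 were called higher.

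Several ribosomal proteins have a paralog, some of them used in particular tissues. Rps27 was at 529, 545 and 527 CPM in CSE and 347, 317 and 346 in control (log2 fold change 0.66 ± 0.046; adjusted p = 7.1e-10). Its paralog Rps27l, known in human cells as a p53 target, stood at 96.6, 97.0 and 104.6 CPM against 80.5, 92.5 and 94.7 (0.15 ± 0.062; adjusted p = 0.034). The Rps27l groups were separate by a small margin. Its call was lost without CSE library 3 (adjusted p = 0.13), without control library 1 (0.21), with upper-quartile factors (0.82), against a 1.2-fold threshold (0.93) and with total counts, where the sign turned (-0.03).

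Rpl39l, a paralog of the tunnel protein Rpl39 best known from testis, was at 33.5, 32.8 and 33.4 CPM in CSE and 34.4, 30.7 and 30.1 in control (log2 fold change 0.07 ± 0.069; adjusted p = 0.38). Its groups overlapped, and its sign was negative with upper-quartile factors and with total counts. Rpl10l, a paralog of Rpl10 that is also best known from testis, had 3.65, 3.05 and 3.30 CPM against 3.77, 3.79 and 3.28 (-0.11 ± 0.18; adjusted p = 0.60). Rps17l was at 2.61, 4.03 and 5.68 CPM against 1.65, 4.85 and 3.58 (0.27 ± 0.31; adjusted p = 0.44), with libraries of both groups mixed. Rpl3l, the paralog of Rpl3 in striated muscle, had at most 6 counts in any library and was not tested.

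Rpl7 and Rpl22 rose by 0.62 and 0.49 on the log2 scale, and their paralogs outside the symbol rule were also called higher. Rpl7l1 rose by 0.59 ± 0.047 (adjusted p = 4.1e-09). Rpl22l1 rose by 0.26 ± 0.089 (adjusted p = 0.015), a call that was lost without CSE library 3 (0.19) or control library 3 (0.13), with upper-quartile factors, with total counts and against a 1.2-fold threshold. Rpl36al, the autosomal paralog of Rpl36a, had too few counts to test.

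The other members that were not called or not tested had very few counts. Rps28 was at 3.56, 4.03 and 4.03 CPM in CSE and 2.24, 3.11 and 3.78 in control (log2 fold change 0.34 ± 0.21; adjusted p = 0.15). Rps19, mutated in Diamond-Blackfan anaemia in people, had 47 counts over all 6 libraries and Rpl8 had 70. Rpl8 was not called (0.86 ± 0.45; adjusted p = 0.094) except without CSE library 3 (1.17; adjusted p = 0.030) or with the rows of its copies added (below). Rps19 had a log2 fold change of -0.03 ± 0.59 (adjusted p = 0.97). Rpl7a and Rpl35a had 19 and 2 counts. Rpl10, Rpl36a and Rpl39, X-linked genes in RefSeq, had 0 counts listed in each library. Rps4x, also X-linked, was at 133 ± 8.43 CPM in CSE and 88.6 ± 3.38 in control, but RefSeq gives this symbol as an older name of a pseudogene on chromosome 4 as well. Rpl38 was called higher at 2.18, 2.40 and 1.81 CPM against 0.883, 1.84 and 0.807 (0.85 ± 0.32; adjusted p = 0.024). Its call was lost without CSE library 1 (adjusted p = 0.057), CSE library 2 (0.076), control library 1 (0.072) or control library 3 (0.11), and it was kept in 9 of 17 alternatives.

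To ask which members moved apart from the others, the same test was run with each library scaled to its own sum of member counts. Of the 75 tested members, 3 were higher and 7 lower against this total, and 65 were not called. Over all tested genes 13.5% were called higher and 66.8% lower on this scale. A p that misses the threshold does not show that a member's share was the same in both groups.

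Rps20 took 0.607, 0.575 and 0.604 of every 1000 member counts in CSE and 0.444, 0.344 and 0.335 in control (log2 0.68 ± 0.11; adjusted p = 4.5e-05). Rpl12 took 8.55, 8.09 and 8.22 against 6.89, 6.14 and 6.03 (0.38 ± 0.062; adjusted p = 2.6e-05). For both genes the groups were separate. Rps27a, the third that was higher, took 14.5, 14.8 and 15.7 against 12.2, 13.3 and 14.9 (0.15; adjusted p = 0.042), with overlapping groups, and lost its call without any of CSE library 2, CSE library 3, control library 1 or control library 2, with adjusted p-values up to 0.20.

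Rpl3 fell from 39.5, 40.3 and 39.2 of every 1000 member counts in control to 34.1, 34.8 and 34.7 in CSE (log2 -0.20 ± 0.044; adjusted p = 6.0e-04). The paralogs Rps27l, Rpl39l and Rpl10l fell by 0.44, 0.53 and 0.70 on the log2 scale against the member total (adjusted p = 2.0e-05, 1.8e-05 and 0.0025). Rps26 fell by 0.36 (adjusted p = 0.0018) and Rpl27 by 0.14 (0.018). Rpl27 lost its call without CSE library 1 (0.051), CSE library 2 (0.059) or control library 2 (0.069). Of the 10 genes, 6 were called in all 12 alternatives: Rps20, Rpl12, Rpl3, Rps27l, Rpl39l and Rpl10l. Without control library 1, 16 members were called and 8 of them higher, among them Rpl13, Rps12 and Rpl9. Without control library 3, 5 were higher, with Rplp1 and Rps16 added.

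**Figure D4:**
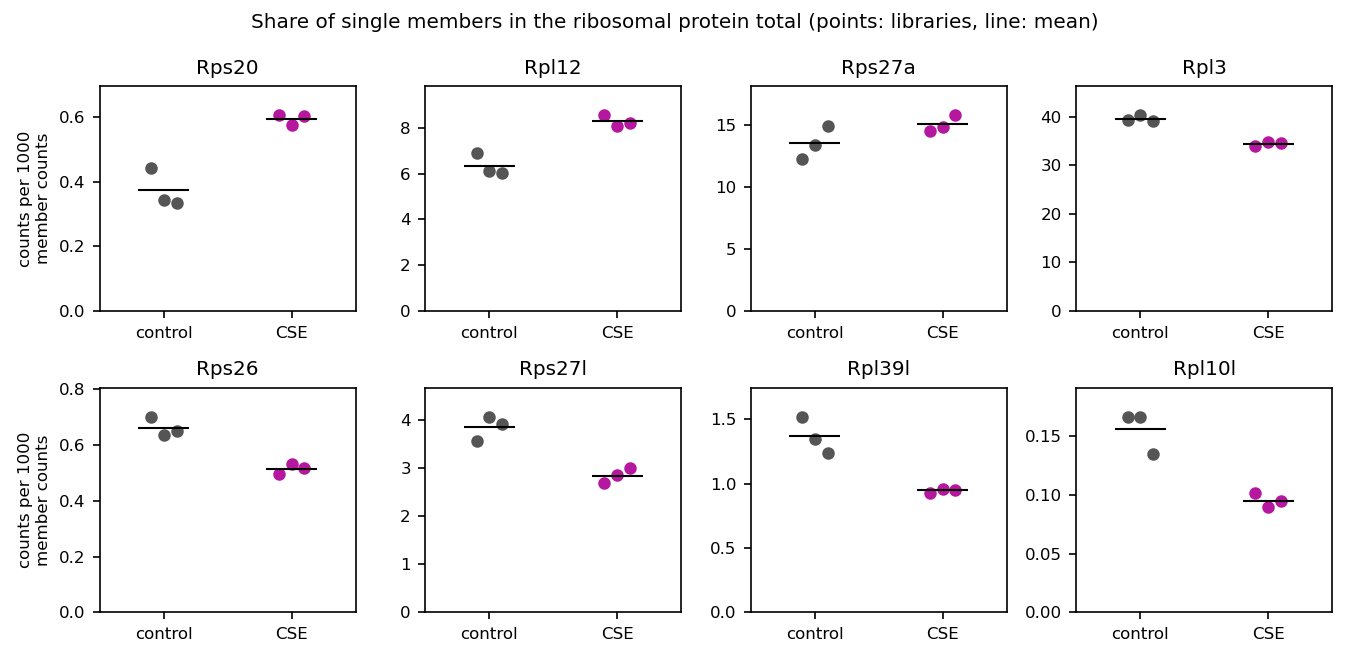
Counts per 1000 ribosomal protein counts (vertical axes, each from 0) of 8 members in the control (grey) and CSE (magenta) libraries, with points for libraries 1 to 3 and lines for the means. Rps20 and Rpl12 take a larger share in CSE, Rps27a overlaps between groups, and Rpl3, Rps26, Rps27l, Rpl39l and Rpl10l take a smaller share in CSE.

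Ribosomal protein genes have many near-identical retrocopies, and reads from a parent gene can be assigned to a copy. RefSeq names 1078 copies or pseudogenes of 76 members. Matching by symbol, synonym or gene identifier found 587 rows of the count table for them, 337 of which were listed at 0. The 587 rows held 10.1% of the counts of members and copies together. In 17 members the copies held more counts than the member's own row. The share in copies was 99.8% for Rps19 and Rpl8, 98.1% for Rps14, 93.1% for Rps12, 90.5% for Rps13, 89.5% for Rpl32, 86.4% for Rpl30, 81.1% for Rplp2, 73.0% for Rps20 and 72.0% for Rps26. The level of these genes is therefore uncertain from their own rows.

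Of 100 copy rows that were tested, 47 were called higher, none lower and 53 were not called, beside 36.3% called higher over all tested genes. With at least 1000 counts, 35 of 37 were higher. Rps19l4, which held most Rps19 counts, was at 226 ± 2.25 CPM in CSE and 141 ± 16.4 in control (SD, n = 3; log2 fold change 0.68, adjusted p = 3.8e-08). Rpl8-ps7 was at 355 ± 33.4 against 225 ± 32.3 CPM (0.66; adjusted p = 1.1e-06), and Rps14-ps7 at 314 ± 6.62 against 203 ± 24.6 CPM (0.63; adjusted p = 1.2e-07). Whether these reads came from the copies or from the parent genes was not tested.

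With each member's copies added to it, 77 members could be tested, 71 were called higher and none lower. This setting was chosen after the data had been seen. Rps19 then rose from 153 ± 15.1 to 244 ± 3.49 CPM (log2 0.67 ± 0.059; adjusted p = 1.1e-08), Rpl8 from 225 ± 32.1 to 356 ± 33.3 CPM (0.66; adjusted p = 7.5e-07) and Rpl10 from 18.6 ± 3.10 to 28.9 ± 0.581 CPM (0.63; adjusted p = 1.2e-05). Rpl38 lost its call (0.14; adjusted p = 0.47), and Rpl39 became testable without a call (0.01; adjusted p = 0.95). The rise of Rps20 shrank to 0.81 ± 0.063 on the log2 scale, under 2-fold and smaller than that of Rpl12. The rise of Rps26 grew to 0.41 ± 0.072. Against the member total Rps20 was then higher by 0.21 (adjusted p = 0.014), and Rps26 was no longer called (-0.18; adjusted p = 0.056). Rpl12, with 0.421% of its counts in copies, stayed at 0.98.

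**Figure D5:**
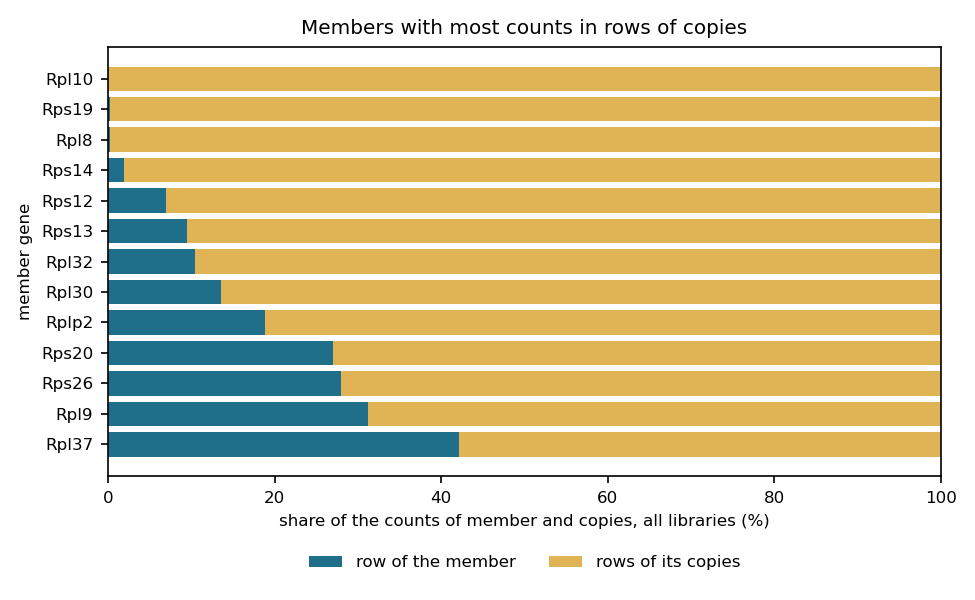
Share of counts (horizontal axis, %, all 6 libraries together) in the member's own row (blue) and in rows that RefSeq names as its copies (yellow), for the 13 members with more counts in copies than in their own row and at least 1000 counts in all. For Rps19, Rpl8 and Rps14 nearly all counts lie in copies, and Rpl10 has none in its own row.

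The tested members with a start window were also split by the pyrimidine start. Of 20 tested members with C and 4 pyrimidines at the annotated start, 20 were called higher, with a median log2 fold change of 0.62 (0.23 to 0.84). Of 36 without it, 34 were higher, with a median of 0.59 (-0.03 to 0.98). The difference was not tested.

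Other ribosomal proteins that the symbol rule misses rose as well. Fau and Gnb2l1 (Rack1) encode a small subunit protein fused to a ubiquitin-like one and the scaffold on the small subunit head. They rose by 0.70 and 0.68 on the log2 scale. Of the 6 tested genes of this list, which also holds Rpl7l1 and Rpl22l1, 5 were higher. Rps4y2, a paralog of Rps4x, fell by 0.50 ± 0.13 (adjusted p = 0.0020). Translation factors and other genes known for TOP messages also rose: 19 of 21 were called higher, none lower, with a median of 0.52. Tpt1 rose from between 1260 and 1320 CPM in control to between 2118 and 2223 in CSE (0.74 ± 0.041; adjusted p = 3.0e-11). Gas5, a noncoding host of small nucleolar RNAs that carries a TOP motif, rose by 0.85 ± 0.052, Pabpc1 by 0.62 and Hnrnpa1 by 0.65. Eif3k (0.08) and Eif4a2 (0.05) were not called.

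Regulators of TOP messages moved both ways, with 11 of 23 tested genes higher, 7 lower and 5 not called and a median log2 fold change of 0.07. Genes as a whole also moved both ways, with 36.3% of all tested genes called higher and 37.5% lower. Sesn2, a stress-induced mTORC1 inhibitor, stood at 196, 177 and 206 CPM in CSE and 56.3, 52.2 and 50.8 in control (1.86 ± 0.063; adjusted p = 3.8e-14). Akt1s1, also an inhibitor, rose by 0.87, and the activator Rheb rose by 0.78. Deptor, an inhibitor, fell by 1.06 on the log2 scale (adjusted p = 1.1e-11). These are levels of messages and give no measure of kinase activity.

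Escort, assembly and export factors of ribosomal proteins were higher in 17 of 26 tested genes, lower in 3 (Sbds, Ipo9 and Pwp1) and not called in 6, with a median of 0.50. The importin Ipo5 was at 915, 911 and 921 CPM in CSE and 309, 301 and 301 in control (1.59 ± 0.042; adjusted p = 1.3e-15). The importin Ipo7 rose by 1.13, the nucleolar GTPase Gnl3 by 1.52 and Nmd3, the export adaptor of the large subunit, by 1.24. Tsr2, the escort of Rps26, was listed at 0. RefSeq places Tsr2 on chromosome X, as it does Rpl10, Rpl36a and Rpl39, which also had 0 counts. Whether reads from that chromosome were fully counted was not tested, so this 0 does not show that Tsr2 was silent. Genes of ribosome quality control were higher in 16 of 27, lower in 4 (Ltn1, Trip4, Gcn1l1 and Eif2ak4) and not called in 7, with a median of 0.19. Riok3, a kinase that takes part in the decay of stalled small subunits, rose by 3.44 ± 0.045 (adjusted p = 2.4e-19), from 146 CPM on average to 1579. The rescue factors Pelo and Hbs1l rose by 1.26 and 0.83, and Usp10, which removes ubiquitin from small subunit proteins, rose by 1.09. Over all tested genes the share called higher was 36.3% on this scale and the share called lower 37.5%.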

How the data were processed

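RNA sequencing counts of 3 CSE and 3 control libraries were used. The deposited table holds whole-number read counts per gene symbol, not normalized by the authors. The submitters' processing notes name HISAT2 2.0.4 and the build Rnor_6.0 without a role. The counting tool, annotation and strand setting are not given in the sources read, so antisense or overlapping genes and near-identical copies cannot be told apart. Without gene lengths, CPM levels are compared between libraries and not between genes. Members and lists were chosen with earlier results of these data known.

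Genes were filtered with filterByExpr and tested with the quasi-likelihood F test of edgeR 4.0.16 in R 4.3.3 (TMM factors, group as the only term, 2-sided, Benjamini-Hochberg over 13390 genes, threshold 0.05). The standard error is the log2 fold change divided by the square root of F. The second test used member sums as library sizes. Shares were compared by exact permutation tests. Alternatives were other scalings, DESeq2 1.42.0, limma 3.58.1 (voom), no filter, glmTreat at 1.2-fold, added copy rows, a replicate block and leaving out each library. Scripts were tested on simulated data.

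Named genes were members not tested or not called, the 8 largest rises and the 8 smallest by log2 fold change at a mean of 5 CPM or more, a fixed set by role, paralog pairs and up to 4 genes per list by smallest p. Further members named by role, other genes in a count of 5 or fewer, and copies were chosen after their values were seen. Copies and start windows came from RefSeq of GRCr8, a different build from that of the counts, matched by symbol, synonym or gene identifier. Among the members with no window were Rpl10l, Rpl15, Rpl23a, Rpl27, Rpl30, Rpl32, Rpl39l, Rpl7, Rpl8, Rps17l, Rps20, Rps25 and Rps29. Some genes that enter the counts are not reported here by name. In all, 11 member symbols are also an older name of another RefSeq gene, among them Rpl12, Rps2, Rps4x and Rps27a.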

Additional observations from a re-analysis of the deposited data

How the results depend on the processing

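Of the 69 members called higher, 66 were called in all 17 alternatives, the exceptions being Rpl38, Rps26 and Rps27l, and the count lay between 66 and 71. Leaving out each library in turn gave 8 to 16 members called against the member total and 2 to 8 of them higher, and 1 to 3 escort genes lower. With upper-quartile factors 5 escort and 8 quality control genes were lower, and with total counts 6 and 10, with 1 lower translation factor. The difference in the share of counts was 1.04 percentage points without the 50 largest other genes and 0.89 with copies added. The log2 ratio of large to small subunit was -0.03 from sums and 0.008 from medians. The sign turned for Rpl39l (-0.068 with upper-quartile factors, -0.12 with total counts), Rps27l (-0.034 with total counts), Rps17l (-0.046 to 0.61 over libraries left out) and Rps19 (-0.46 to 0.40 over libraries left out, 0.67 with copies added). The cause was not tested. Of the other single-gene values, most kept their direction and call: 894 of the CSE comparison and 108 against the member total.

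Deviations of same-numbered libraries from their group means correlated at 0.020, -0.027 and 0.0009, and those of differently numbered libraries at -0.078 to 0.086. Deviations from a mean of 3 libraries depend on each other. These values therefore cannot show whether a replicate number marks a shared culture or day. With a replicate block, 69 members were called, and 8 against the member total, 3 of them higher and 5 lower; Rpl27 was among those that lost their call (adjusted p = 0.054, edgeR). It changed no call of a member in the comparison of CSE with control. In their own rows 8 members had 100 counts or fewer over all libraries. For Rpl10, Rpl39, Rpl8 and Rps19 all or nearly all counts lay in copy rows, and the origin of those reads was not tested. Rpl7a, Rpl35a, Rpl36a and Rpl3l had few counts in any row.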
